A study of Caenorhabditis elegans with 205 samples.

Results

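A set of 10 genes needed for gentle touch in Caenorhabditis elegans, without the subunits of the touch channel itself, was followed through 53 classes of sorted neurons. They were chosen by name as mec-1, mec-2, mec-3, mec-6, mec-7, mec-9, mec-12, mec-14, mec-17 and mec-18, and all 10 were found among the 46927 genes of the count table. Each class was isolated by fluorescence-activated cell sorting from untreated worms grown on plates with E. coli strain NA22, and total RNA was sequenced in 2 to 6 libraries per class. AVM (3 libraries) and PVM (2 libraries) are the gentle touch receptor neurons among the classes, and the related ALM and PLM neurons were not analysed here. PVD (2 libraries) is a branched mechanosensory and nociceptive neuron. The strains, the reporters that marked the cells and the age of the worms are not given in the sources used here. Libraries are named by the class and the replicate number in their label. Nothing in the labels says that the libraries of a class came from separate cultures, so p-values measure only the spread between these libraries, which may be technical.

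Gentle touch along the body is sensed by a few neurons whose long processes run under the cuticle. Their fate is set by the LIM homeodomain factor MEC-3 acting with the POU factor UNC-86. The processes are filled with unusually wide microtubules built from the tubulins MEC-7 and MEC-12. The mechanically gated channel, made of the DEG/ENaC subunits MEC-4 and MEC-10, is associated with the stomatin-like protein MEC-2 and the paraoxonase-like protein MEC-6, and extracellular proteins such as MEC-1 and MEC-9 are needed for attachment and for touch sensitivity.

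Total counts ran from 798303 to 24647021 over the libraries, with a median of 4692492. They were 5902839 to 7048749 in AVM, 2566818 and 2588108 in PVM, and only 868124 and 1175863 in PVD, so low values are less precise in PVD than in AVM and PVM. Levels are CPM, the counts of a gene scaled to a common library total, with library sizes adjusted by the trimmed mean of M-values (TMM). Where no read was found, up to 3 counts are allowed, which were worth 0.643 CPM in the median library and 6.37 CPM in the shallowest, for counting error only. Markers were checked for the classes AVM, PVM and PVD. The channel gene mec-4 stood at 726 to 990 CPM in AVM and at 295 and 511 CPM in PVM. Its highest mean elsewhere was 16.6 CPM, in the thermosensory class AFD. Of 5 markers of PVD, dma-1, hpo-30, deg-3 and des-2 had their highest class mean in PVD, and F49H12.4 ranked 4 there.

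Across the 53 classes, 7 of the 10 genes had their highest mean in AVM, mec-2 and mec-14 had it in PVM, and mec-6 had it in IL2, a class of inner labial sensory neurons. For 7 genes (mec-1, mec-7, mec-9, mec-12, mec-14, mec-17 and mec-18) every AVM and PVM library lay above every one of the other 200 libraries. Of all 20427 genes tested, 0.122% separated the libraries in this way. All 10 genes differed across the classes (edgeR quasi-likelihood F-test, the largest adjusted p being 1.07e-22 for mec-6), where 95.5% of all genes were called, so the count of 10 is close to the background. Summed over the 10 genes, the level was 43479, 43512 and 50663 CPM in the 3 AVM libraries and 15456 and 29702 CPM in the 2 PVM libraries. PVD had 710 and 1979 CPM. The median of the libraries outside AVM, PVM and PVD was 539 CPM, and the highest was DVCr166 at 4273 CPM, of which mec-12 made up 4165 CPM.

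**Figure D1:**
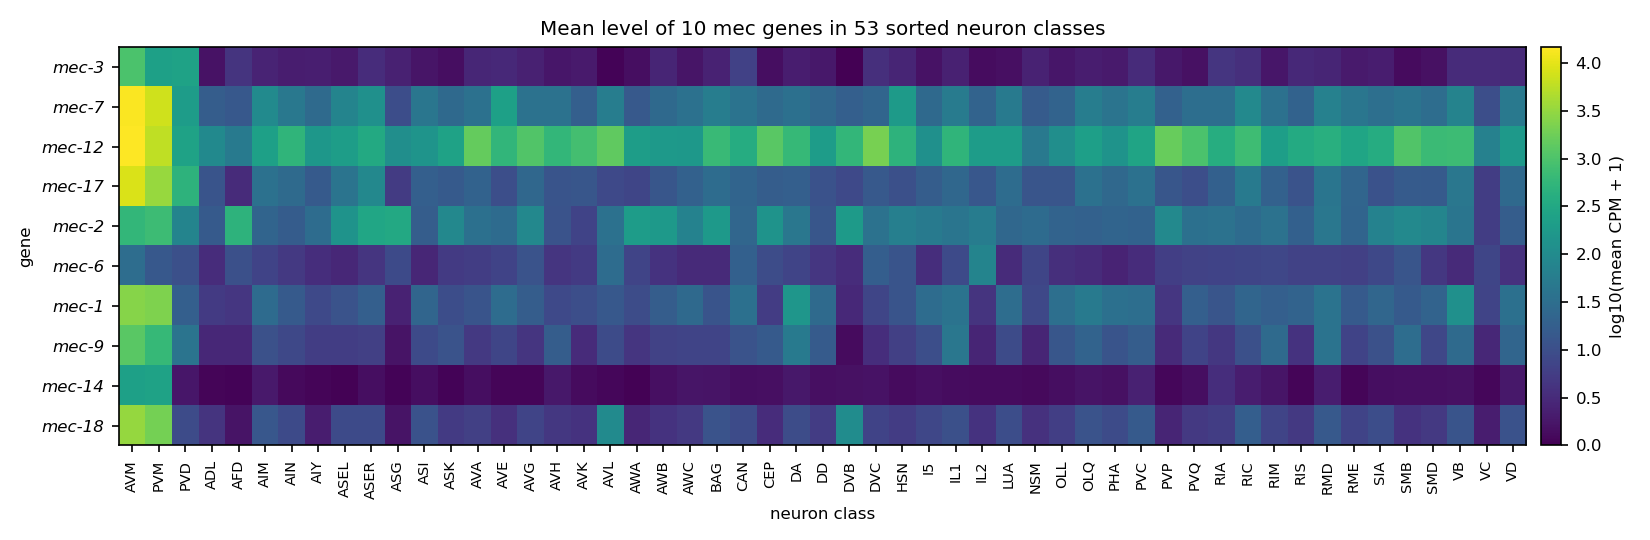
Mean level of the 10 genes (rows) in each of the 53 classes (columns, with AVM, PVM and PVD first), as log10(mean CPM + 1). AVM and PVM stand out for most rows, mec-3 is also high in PVD, and mec-12 and mec-2 are spread over many classes.

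The transcription factor gene mec-3 (WBGene00003167; WBcel235, chromosome IV, 10458816 to 10461867, minus strand) was read at 991, 889 and 989 CPM in AVMr226, AVMr227 and AVMr228, the AVM libraries in the order used throughout. PVM had 170 and 303 CPM in PVMr123 and PVMr126, and PVD had 160.99 and 333 CPM in PVDr62 and PVDr63. AVM lay above both other classes without overlap, while the ranges of PVM and PVD overlapped. The next class, CAN, had a mean of 5.31 ± 1.30 CPM (SD, n = 3), and the median over the 51 classes other than AVM and PVM was 1.18 CPM. In 77 of the 200 libraries outside the touch receptor classes the gene had 3 counts or fewer.

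The microtubule genes had the highest levels of the 10. The β-tubulin gene mec-7 (WBGene00003171; chromosome X, 7774856 to 7776689, minus strand) reached 13414, 13020 and 15524 CPM in AVM and 4870 and 9734 CPM in PVM. Its next class means were 229 ± 146.45 CPM in the command interneuron AVE (n = 3), 196.7 ± 113 in PVD (n = 2) and 186.4 ± 248 in the egg-laying neuron HSN (n = 3), and these 3 overlapped. The HSN mean came from 1 library, HSNr238, at 472 CPM, with 42.1 and 44.8 CPM in the others. The lowest touch receptor library was 10.3 times the highest library of any other class.

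The α-tubulin gene mec-12 (WBGene00003175; chromosome III, 3131574 to 3139234, minus strand) was read at 12545, 14192 and 17303 CPM in AVM and at 4206 and 7465 CPM in PVM. It was also present in every other class: 47 of the 51 had a mean of at least 100 CPM, and the median class stood at 338 CPM. DVC led these with 2077 ± 1733 CPM (n = 4), from 334 to 4165 CPM, so that its highest library came within 1.01-fold of the lowest PVM library. PVP (1557 ± 925 CPM, n = 4), AVA (1514 ± 374 CPM, n = 6) and AVL (1436 ± 541 CPM, n = 3) followed, and the ranges of neighbours in this order overlapped. The mean of AVM and PVM was 4.94 times the DVC mean, whereas for mec-7 it was 46.6 times the next class, AVE. The gene shares 76 exon bases with Y53G8B.1 on the other strand.

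The gene mec-17 (WBGene00003178; chromosome IV, 7983802 to 7987183, minus strand) encodes an α-tubulin acetyltransferase. It was read at 7662, 8061 and 9628 CPM in AVM and at 2279 and 4526 CPM in PVM. PVD came next with 178.5 and 817 CPM, a 4.58-fold difference between its 2 libraries. The right taste neuron ASER had 86.3 ± 32.9 CPM (n = 4), below both PVD libraries, and the median class had 15.6 CPM. The gene shares 51 exon bases with arf-5 on the other strand, whose median class mean was 216.1 CPM, so the lower mec-17 values are uncertain.

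Levels can be compared between genes only per length, as CPM per kilobase (CPM/kb) of summed exon length. On that scale mec-12, mec-7 and mec-17 ranked 2, 3 and 5 of 19979 protein-coding genes in AVM, at 9107, 8942 and 8188 CPM/kb. In PVM they ranked 5, 3 and 6, at 3620, 4669 and 3297 CPM/kb. Among 9 α-tubulin genes, mec-12 made up 90.2 ± 2.87% of the summed CPM/kb in AVM (SD, n = 3) and 70.2 ± 3.83% in PVM (n = 2). Its share was 37.1 ± 0.627% in AVL, the next class, and 14.2% in the median of the 51 classes. Among 6 β-tubulin genes, mec-7 made up 90.9 ± 0.820% in AVM and 76.6 ± 7.54% in PVM. It made up 8.21 ± 0.822% in PVD and 1.85% in the median class, so the step from the touch receptor classes to the rest was wider for mec-7 than for mec-12. The general tubulins tba-1 and tbb-2 were at 602 and 561 CPM/kb in AVM, against 550 and 954 CPM/kb in the median class. Tubulin genes are similar in sequence, and how reads that map to several places were counted is not given in the sources used here, so the split among them is uncertain.

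**Figure D2:**
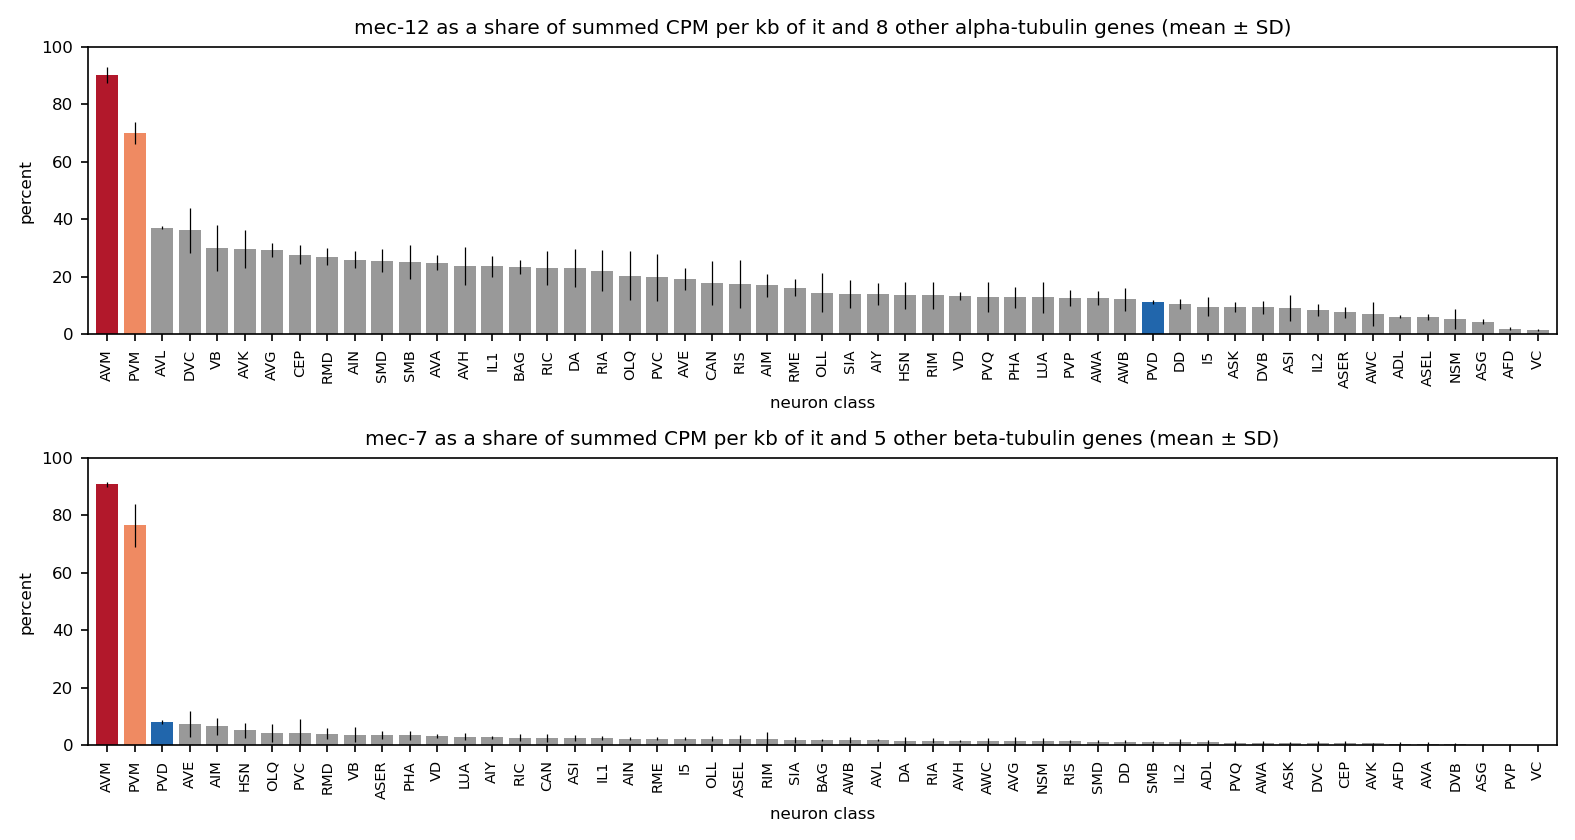
Share of mec-12 in the summed CPM/kb of 9 α-tubulin genes (top) and of mec-7 in that of 6 β-tubulin genes (bottom) in each of the 53 classes, as means with SD over libraries. AVM (dark red) and PVM (orange) lead both panels, while mec-12 keeps shares of 10% and more in many other classes and mec-7 does not exceed 8.21% in any of them.

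The channel partners mec-2 and mec-6 had the smallest shares of their summed class means in AVM and PVM, 25.6% and 10.3%. The stomatin-like gene mec-2 (WBGene00003166; chromosome X, 5567754 to 5590830, plus strand) was at 593, 546 and 558 CPM in AVM and 568 and 846 CPM in PVM. AFD followed at 492 ± 138.3 CPM (n = 5), with libraries from 337 to 646 CPM, which overlapped both touch receptor classes. The chemosensory classes ASG (324 ± 127 CPM, n = 4), ASER (289 ± 118.7 CPM, n = 4) and AWA (200.4 ± 121.3 CPM, n = 4) came next, and the ranges of neighbours down to AWA overlapped. Over 17 ciliated sensory classes, a list written after the values were seen, the median class mean was 86.8 CPM, against 33.7 CPM over the 34 other classes, and the ranges overlapped widely. The 17 annotated transcripts of mec-2 cannot be told apart in counts per gene, and the gene shares 65 exon bases with non-coding RNA genes on the other strand.

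The gene mec-6 (WBGene00003170; chromosome I, 6724867 to 6728330, plus strand) encodes a paraoxonase-like membrane protein needed for the touch channel. It had only 32.9, 30.5 and 25.1 CPM in AVM and 10.1 and 15.99 CPM in PVM, and the PVM values rest on 17 and 33 counts. IL2 had the highest mean, 74.2 ± 45.5 CPM (n = 4): IL2r95, IL2r96 and IL2r97 had 86.9, 107.2 and 95.4 CPM and IL2r94 had 7.09 CPM. The defecation motor neuron AVL had 28.3 ± 6.41 CPM (n = 3), which overlapped AVM, and the median class had 5.14 CPM. In 29 of the 200 other libraries the level was above that of the lowest touch receptor library. The gene shares 35 exon bases with lbp-6 on the other strand, whose median class mean was 48.2 CPM, which adds doubt to its low values.

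**Figure D3:**
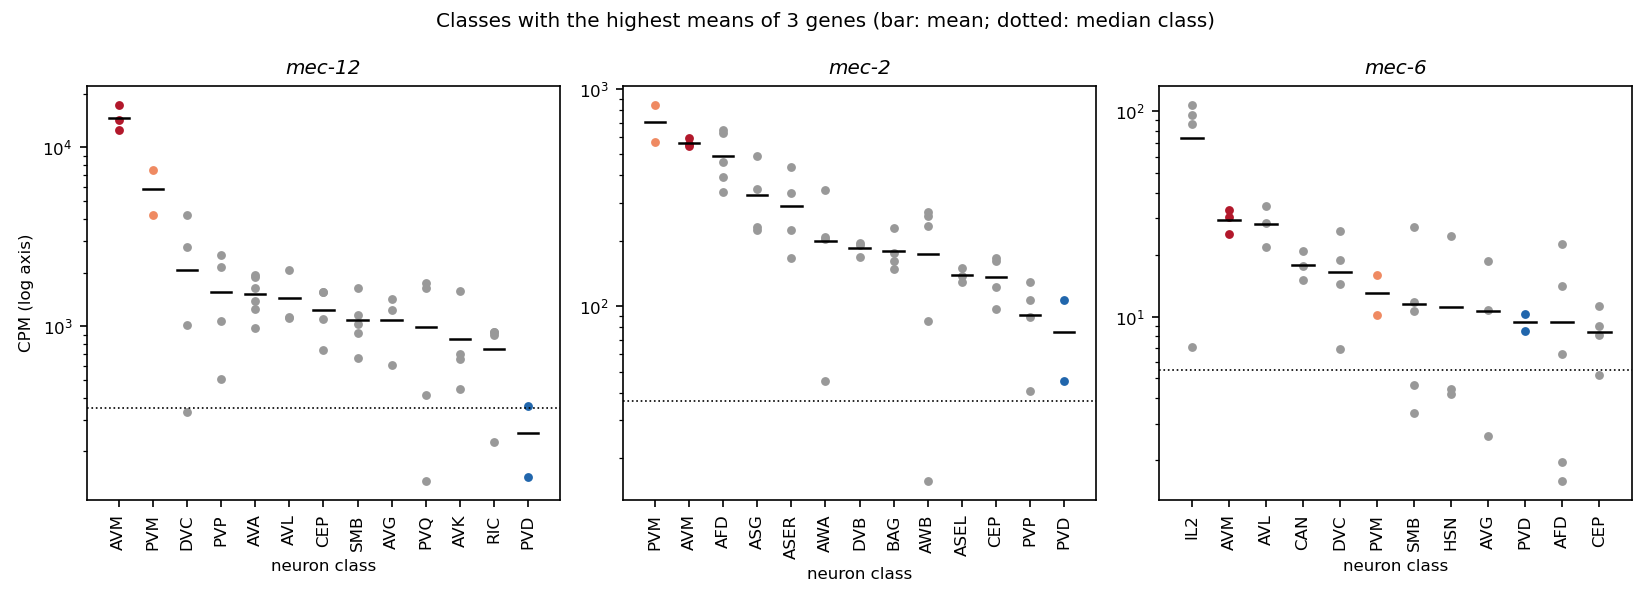
CPM of mec-12, mec-2 and mec-6 in every library (points) of the 12 classes with the highest means and of PVD, with class means (bars) and the median class mean (dotted line), on log axes. The touch receptor classes lead for mec-12, overlap AFD for mec-2 and lie below 3 of the 4 IL2 libraries for mec-6.

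The matrix genes mec-1 and mec-9 shared their 3 highest classes. The gene mec-1 (WBGene00003165; chromosome V, 6956537 to 6966425, plus strand), which encodes a large secreted protein with EGF and Kunitz domains, was at 2939, 2459 and 2168 CPM in AVM and 1558 and 2965 CPM in PVM. The ranges of both classes overlapped. The next classes were the cholinergic motor neurons DA (154.3 ± 184.5 CPM, n = 4) and VB (123.2 ± 69.3 CPM, n = 4). In DA, DAr87 had 426 CPM and the other libraries 25.4 to 109.4 CPM. PVD had 21.3 and 13.3 CPM, close to the median class at 15.99 CPM. On the other strand, ptr-15 shares 30 exon bases with mec-1.

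The gene mec-9 (WBGene00003173; chromosome V, 9907615 to 9915121, minus strand), which also encodes a secreted protein with EGF and Kunitz domains, was at 1384, 1313 and 1085 CPM in AVM and 415 and 811 CPM in PVM. DA came next here too, at 51.8 ± 42.6 CPM (n = 4), followed by the inner labial class IL1 (44.5 ± 18.4 CPM, n = 3), PVD (23.9 and 55.3 CPM) and RMD (37.8 ± 7.03 CPM, n = 5), all with overlapping ranges. Over the 51 classes, log2(CPM + 1) of mec-1 and mec-9 had a Pearson r of 0.75, the highest of the 45 pairs among the 10 genes. The 2 annotated transcripts of mec-9 cannot be told apart in counts per gene. On the other strand, egl-47 shares 33 exon bases with mec-9.

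The last 2 genes encode enzyme-like proteins. The gene mec-14 (WBGene00003176; chromosome III, 7190189 to 7192992, minus strand), related to aldo-keto reductases, was at 261, 190 and 240 CPM in AVM and 190.7 and 310 CPM in PVM. The interneuron RIA had the next mean, 2.47 ± 1.57 CPM (n = 6), from 1.14 to 5.24 CPM. No library outside AVM and PVM exceeded 5.32 CPM, so the lowest touch receptor library was 35.6 times the highest other one. PVD had 3 counts in PVDr62 and 0 in PVDr63, where 3 counts would be 3.07 CPM. The mean of AVM and PVM was 97.2 times the RIA mean, the largest such ratio of the 10 genes.

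The gene mec-18 (WBGene00003179; chromosome X, 4271165 to 4274216, minus strand), related to acyl-CoA synthetases and luciferases, was at 3657, 2812 and 3143 CPM in AVM and 1190 and 2727 CPM in PVM. The defecation motor neurons DVB (38.9, 113 and 169 CPM) and AVL (68.9, 94.9 and 130 CPM) came next and overlapped each other. Both lay above RIC, the next class, at 16.7 ± 11.3 CPM (n = 4). The gene shares more exon bases with another gene, C52B9.10 on the other strand, than any other of the 10 does. C52B9.10 had means of 273 CPM in AVM, 83.1 CPM in PVM, 4.00 CPM in DVB and 3.18 CPM in AVL. Whether the authors' counting used strand is not given in the sources used here, so reads in the shared bases cannot be assigned with certainty.

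**Figure D4:**
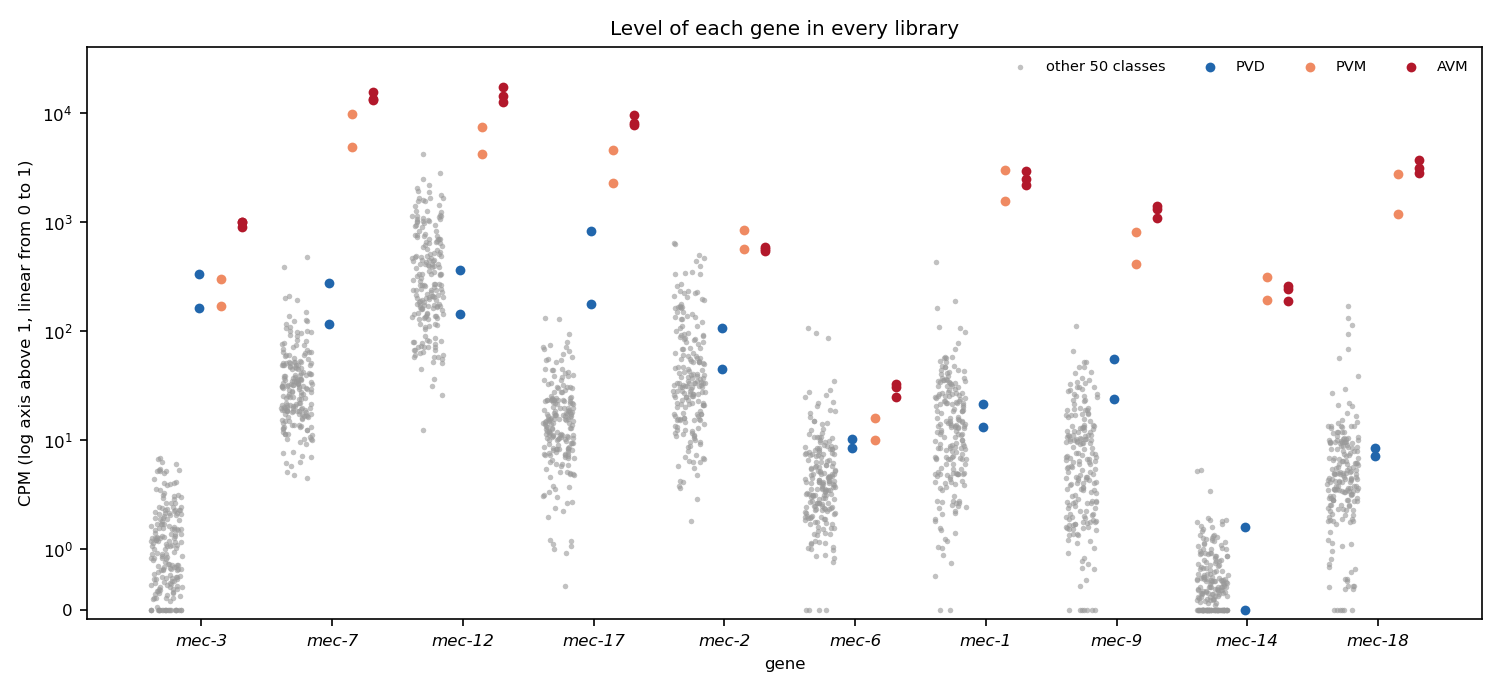
CPM of each of the 10 genes in every library, with AVM, PVM and PVD libraries coloured and the libraries of the other 50 classes in grey, on an axis that is logarithmic above 1 CPM and linear from 0 to 1. The AVM and PVM points lie above all grey points for 8 of the 10 genes, the exceptions being mec-2 and mec-6, and the PVD points do so for mec-3 and mec-17.

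All 10 genes were higher in the mean of AVM and PVM than in the mean of the other 51 classes (edgeR quasi-likelihood test, all libraries in 1 fit, Benjamini-Hochberg adjusted p under 0.05 over 20427 genes). Of all genes, 4.84% were called in this comparison, 4.42% higher and 0.426% lower. The median log2 fold change of the 10 genes was 7.73, beside -0.19 for all genes tested. The fold changes compare means of log levels, in which every class counts once. They were largest for mec-14 (log2 fold change 9.14 ± 0.46, SE from the weights and quasi-dispersion of the fit, adjusted p = 5.57e-83), mec-18 (8.80 ± 0.39, adjusted p = 4.08e-94) and mec-3 (8.66 ± 0.43, adjusted p = 2.23e-84). Those of mec-14 and mec-3 depend on the prior count of the fit. Many libraries held no read of mec-14, and no DVB library held a read of mec-3. The smallest were those of mec-12 (4.79 ± 0.38, adjusted p = 3.16e-49), mec-2 (3.89 ± 0.34, adjusted p = 2.60e-39) and mec-6 (1.97 ± 0.42, adjusted p = 2.38e-06). With the other libraries taken as 1 group, mec-6 was no longer called (log2 fold change 1.46, adjusted p = 0.324). AVM alone gave 10 calls, where 6.87% of genes were higher, and PVM alone gave 9, where 2.78% were higher, the exception being mec-6 in PVM (1.39 ± 0.65, adjusted p = 0.326). A higher level in a bulk library can come from more cells of a type or from more RNA per cell, and these cannot be told apart.

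**Figure D5:**
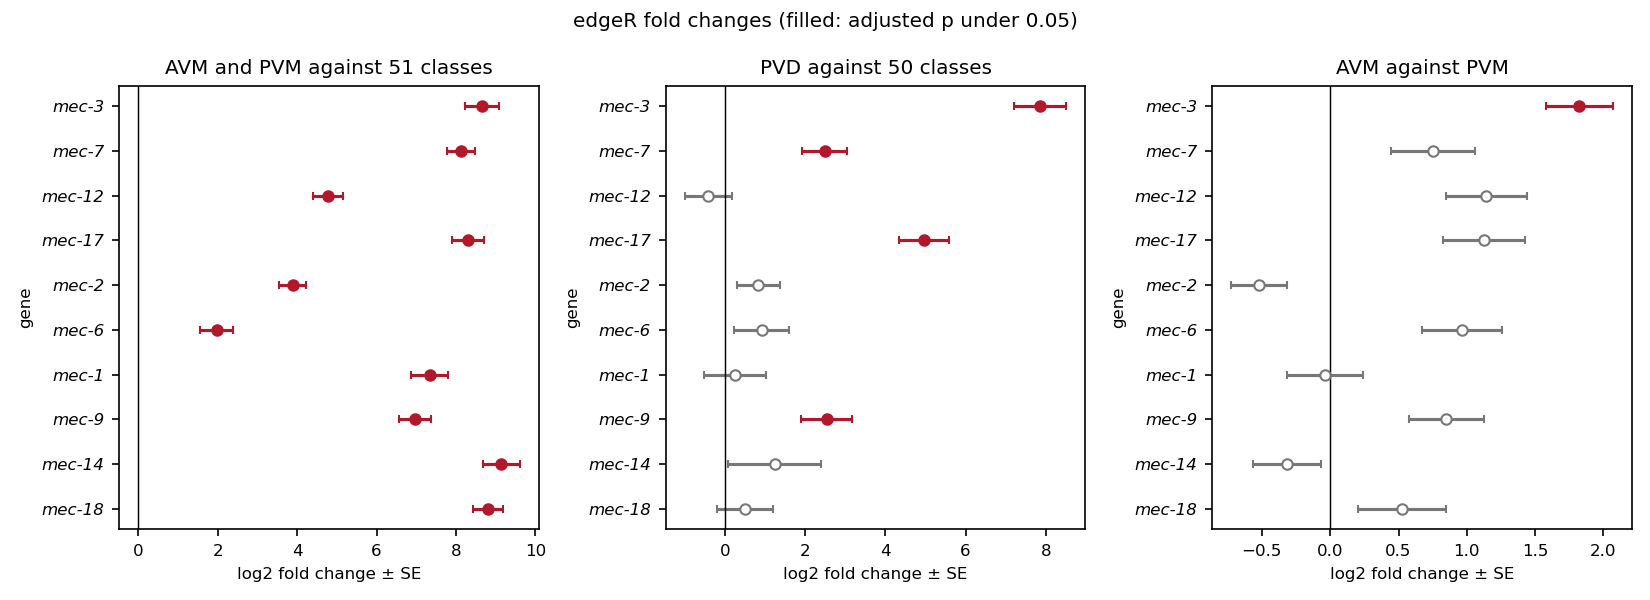
Log2 fold changes with SE from edgeR for the 10 genes in 3 comparisons, filled where the adjusted p was under 0.05. All 10 are filled in the first panel, mec-3, mec-7, mec-9 and mec-17 in the PVD panel, and mec-3 alone between AVM and PVM.

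Between AVM and PVM, only mec-3 passed the test among the 10, where 7.84% of 11194 genes were called, 3.11% higher and 4.73% lower in AVM. It was higher in AVM, with a log2 fold change of 1.82 ± 0.25 (SE, edgeR adjusted p = 0.00802). Every AVM library lay above both PVM libraries for mec-3 and also for mec-6, mec-7, mec-9, mec-12, mec-17 and mec-18. The share of all genes ordered in this way was not computed, so the order is not read as particular to these genes. The channel genes mec-4 and mec-10, outside the 10, were ordered alike, with PVM means at 0.467 and 0.531 of the AVM means. The tubulin genes and mec-17 did not pass: mec-12 at 1.14 ± 0.30 (adjusted p = 0.0681), mec-17 at 1.13 ± 0.30 (adjusted p = 0.0733) and mec-7 at 0.75 ± 0.31 (adjusted p = 0.183). With 3 and 2 libraries, a value that misses the threshold does not show that the classes are alike. The values of mec-1 (-0.04 ± 0.28), mec-14 (-0.32 ± 0.25) and mec-2 (-0.52 ± 0.21) were at or below 0. Every one of the 10 genes was higher in PVMr126 than in PVMr123, by 1.49-fold to 2.29-fold. So were the channel genes mec-4 (1.73-fold) and mec-10 (2.46-fold), so the difference was not confined to the 10. Its share over all genes was not computed. Without PVMr126 more of the 10 genes were called, but PVM then had 1 library, which was assumed to vary like the AVM libraries. DESeq2 and limma-voom called 3, with mec-12 and mec-17. Over all 11194 genes, DESeq2 called 1355 and limma-voom 666, beside 878 in edgeR. With all libraries in 1 fit none of the 10 was called, although the median log2 fold change of the 10 was 0.99, against 0.80 in the fit of AVM and PVM alone. There mec-3 was at 2.02 ± 0.82 (edgeR adjusted p = 0.481), beside 0.279% of all genes called. The summed level of 6 general neuron markers was 7879 to 10153 CPM in AVM and 4469 and 6219 CPM in PVM. That of 5 body wall muscle markers was 10024 to 24047 CPM in AVM and 4977 and 5537 CPM in PVM. The medians over all libraries were 4277 CPM for neuron and 8716 CPM for muscle markers, so every AVM library lay above both. Ribosomal RNA took 21.1 to 39.9% of AVM counts and 46.7 and 59.4% of PVM counts. The part of these marker and ribosomal RNA levels in the differences between AVM and PVM was not tested.

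In PVD, 4 of the 10 genes were higher than in the mean of the 50 other classes outside AVM and PVM, where 3.81% of all genes were called, 3.55% higher and 0.264% lower. The median log2 fold change of the 10 was 1.08, beside -0.28 for all genes. The largest was that of mec-3 (log2 fold change 7.86 ± 0.65, edgeR adjusted p = 1.59e-59), followed by mec-17 (4.96 ± 0.62, adjusted p = 5.89e-30), mec-9 (2.53 ± 0.63, adjusted p = 7.26e-05) and mec-7 (2.49 ± 0.56, adjusted p = 1.07e-06). Without PVDr63, mec-7 (1.72, adjusted p = 0.249) and mec-9 (1.79, adjusted p = 0.407) were no longer called, and the count fell to 2. PVD then had 1 library, which was assumed to vary like the libraries of the other classes. The other genes did not pass the test, from mec-12 at -0.42 ± 0.59 to mec-14 at 1.24 ± 1.15. The channel subunit gene mec-4 had only 5 and 2 counts in PVD, too few for a ratio of other genes to it. The channel subunit mec-10 was at 135.5 and 131.04 CPM in PVD.

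Each class was also compared with the mean of the other 52, which gave 530 pairs of a gene and a class. Of these, 76 were called higher (edgeR adjusted p under 0.05) and 59 lower, beside 11.4% higher and 3.05% lower over all genes and classes. AVM accounted for all 10 genes and PVM for 9, and the other 57 pairs lay in 34 other classes. These 57 are 11.2% of the 510 pairs outside AVM and PVM, a share close to the 11.4% of all genes, so their number is not particular to the 10 genes. Of those 57, 34 were called whichever 1 library of every class was left out, which is 6.67% of the 510 pairs. The share over all genes that stayed called in this way was not computed. The number of 34 is therefore not read as particular to the 10 genes. With each class set against all other libraries as 1 group, 17 pairs were called higher, beside 2.08% of all pairs of gene and class. Of the 57 pairs outside AVM and PVM, mec-2 in AFD (log2 fold change 2.66) and mec-6 in IL2 (3.58) were called in that setting, and 22 pairs were below 0. Of the 19 pairs in AVM and PVM, 4 were not called in that setting: mec-6 in AVM (adjusted p = 0.112), and mec-3 (adjusted p = 0.905), mec-12 (adjusted p = 0.145) and mec-2 (adjusted p = 0.0507) in PVM. The group of other libraries holds those of the other touch receptor class, and for the remaining classes those of both. Their levels of most of the 10 genes are high, and over all pairs the share called higher also fell, from 11.4% to 2.08%. What ended the calls was not tested, so missing calls in that setting cannot decide whether the first calls hold.

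The pairs outside the touch receptor classes that were called whichever 1 library was left out were led by mec-2, with AFD (log2 fold change 3.44 ± 0.33, edgeR adjusted p = 1.09e-32), ASG and ASER among 9 classes. For mec-12 they were DVC, PVP, AVA, AVL, CEP and SMB. The gene mec-18 was called in DVB (4.00 ± 0.49, adjusted p = 8.48e-25) and AVL (3.87 ± 0.49, adjusted p = 1.71e-23), and mec-6 was called in IL2 (3.89 ± 0.44, adjusted p = 1.38e-27), AVL, CAN and DVC. The gene mec-1 was called in DA and VB, and mec-9 in DA, IL1, RMD, SMB and RIM. The others were mec-7 in AVE and ASER, mec-17 in PVD and ASER, mec-3 in PVD and mec-14 in RIA. With the other libraries as 1 group, 32 of these 34 pairs were not called, mec-18 among them in DVB (0.53, edgeR adjusted p = 0.836) and AVL (0.40, adjusted p = 0.892). That group holds the AVM and PVM libraries, which are high for most of the 10 genes, so it is not the remaining classes alone. The cause of the lost calls was not tested. A missing call or a value below 0 there therefore cannot show that a class is like the remaining classes. In that setting 6 of the 34 were below 0, namely mec-7 in AVE (-0.49) and ASER (-1.39), mec-17 in ASER (-1.08), mec-14 in RIA (-1.40), and mec-9 in RIM (-0.39) and SMB (-0.23). Leaving out 1 library ended the calls of mec-7 in HSN (0.17 without HSNr238), mec-1 in OLQ (0.76 without OLQr219), and mec-14 (0.52) and mec-18 (-0.63) in PVC without PVCr214. The library PVCr214 had 202.02 CPM of mec-7, 131.9 CPM of mec-17 and 56.8 CPM of mec-18, where the other 4 PVC libraries had 9.99 to 33.5, 4.91 to 22.7 and 0.755 to 7.91 CPM. It also had 28.5 CPM of mec-4, beside 0.189 to 1.95 CPM in the others.

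VC, the egg-laying motor neuron, was called lower for 7 of the 10 genes, where 9.95% of all genes were called lower in that class. AFD and ASG were called lower for 6 each, where 9.17% and 5.9% of all genes were lower, and both were called higher for mec-2. No class was called lower for mec-14, whose median class stood at 0.440 CPM, under the level of 3 counts in the median library.

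The genes most like each of the 10 over the 53 classes, by Pearson r of log2(CPM + 1) of class means, were given by a fixed rule of the 3 highest. The classes share depth and sorting, so r is a description. The gene twk-10, a potassium channel gene, was among them for mec-7 (r = 0.89), mec-17 (0.90), mec-1 (0.85), mec-9 (0.83), mec-14 (0.96) and mec-18 (0.85). The touch receptor gene mtd-1 was among them for mec-7 (0.90), mec-17 (0.94), mec-1 (0.85) and mec-9 (0.82). The channel subunit gene mec-10 was the closest to mec-3 (0.94). The closest to mec-12 was txdc-9 (0.75), to mec-2 ssr-2 (0.68), to mec-6 Y11D7A.19 (0.64) and to mec-18 its overlapping neighbour C52B9.10 (0.93). The means of Y11D7A.19 were only 3.32 CPM in AVM, 0.242 CPM in PVM and at most 5.10 CPM elsewhere (IL2), so its r rests on low values.

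Over the 51 classes without AVM and PVM, the neighbours changed. The gene mtd-1 stayed closest to mec-7 (r = 0.60) and to mec-17 (0.79). The closest to mec-9 were madd-4 (0.80), a secreted synaptic organiser of motor neurons, the DEG/ENaC gene unc-8 (0.75) and the potassium channel gene unc-58 (0.73). The β-tubulin gene ben-1 (0.78) was among the closest to mec-12. The closest to mec-18 was again C52B9.10 (0.80). Among the 21 pairs that leave out mec-2, mec-6 and mec-12, r was 0.65 to 0.90 over 53 classes and -0.05 to 0.75 over 51 classes, with a median of 0.39. Among the 24 pairs with any of those 3 genes, the median over 51 classes was -0.03.

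Of 39 other listed genes of the pathway, 38 were tested. In AVM and PVM 15 were higher and 0 lower than in the other 51 classes, beside 4.42% and 0.426% of all genes. The list was chosen with earlier results of these data known, so these counts are not independent of the data. The median log2 fold change of these 38 was 0.50. Both channel subunits were higher (mec-10 8.54 ± 0.44 and mec-4 8.06 ± 0.41, SE), as were 5 of the 8 tested regulators. Among regulators, ahr-1 (5.57 ± 0.47), a bHLH-PAS factor, unc-86 (4.69 ± 0.39) and the homeobox gene alr-1 (3.80 ± 0.37) had the largest values. Of 5 matrix, processing and accessory genes 3 were higher: the paraoxonase-like gene poml-1 (8.19 ± 0.54), the splicing factor gene mec-8 (2.67 ± 0.30) and the F-box gene mec-15 (2.33 ± 0.24). Of 8 stomatin-like genes, unc-24 (3.74 ± 0.39), sto-5 (2.92 ± 0.36), sto-2 (2.63 ± 0.38) and unc-1 (1.11 ± 0.37) were higher. Of 15 tubulin genes and partners only ptl-1 (4.30 ± 0.34), the tau-like microtubule-associated protein gene, was higher, and none of the other 14 was called in either direction. Between AVM and PVM, 7 of 35 tested were higher in AVM and 3 lower in the fit of their own libraries, where 3.11% of all genes were higher and 4.73% lower, and 0 of 38 were called with all libraries in the fit. The regulators alr-1 (2.25 ± 0.23, edgeR adjusted p = 0.00329) and ahr-1 (2.53 ± 0.34, adjusted p = 0.00808) were higher in AVM, as were atat-2, ptl-1, sto-2, sto-4 and unc-1. The β-tubulin gene tbb-2 (-0.87 ± 0.18), the hemicentin gene him-4 (-2.03 ± 0.38) and the stomatin-like gene sto-6 (-1.79 ± 0.43) were lower. In PVD, 8 of the 38 were higher and 0 lower, where 3.55% of all genes were higher and 0.264% lower, with mec-10 (6.36 ± 0.68), egl-46 (5.77 ± 0.64) and unc-86 (2.66 ± 0.61) among them.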

How the data were processed

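RNA was measured in 205 libraries of 53 sorted neuron classes. The authors deposited a table of raw counts per gene. Per the submitters' processing notes, STAR 2.7.7a, UMI-tools 1.1.4 and featureCounts from Subread 2.0.3 were used; strand and multi-mapping settings are not given in the sources used here. Columns were matched to libraries by name, and 14 columns that match no library were not used. The labels name the library kit for 180 libraries of 46 classes and not for 25 libraries of 7 classes; no class is in both sets, so set and class cannot be told apart. Total counts per library run from 798303 to 24647021, which limits the precision of low values. No 2 libraries of a class were alike within sampling noise (smallest chi-square per degree of freedom 5.11 over 317 pairs).

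From the counts, TMM factors (0.256 to 2.03), CPM and edgeR 4.0.16 quasi-likelihood tests (R 4.3.3, filterByExpr by class, trended dispersion, Benjamini-Hochberg adjusted p under 0.05) were computed. All libraries shared 1 fit of 20427 genes, except that AVM and PVM were compared on their own libraries (11194 genes). Class contrasts used a faster solver that gave the same calls as edgeR on 1000 genes in each of 4 classes. The tests were tried on simulated counts with known changes and 1 dispersion for all genes. Between AVM and PVM, 0% of genes changed 2-fold were called, 46.2% of those changed 4-fold and 98.3% of those changed 8-fold. For AVM and PVM against the other classes these shares were 5.97%, 47.8% and 84.8%. Alternatives were RLE scaling, no filter, removal of ribosomal RNA genes, limma-voom 3.58.1, DESeq2 1.42.0, libraries with a named kit, other libraries as 1 group, and leaving out libraries. The named genes are the 10 genes, the listed pathway genes and the 3 genes most like each by Pearson r of log2(CPM + 1). The genes and lists were chosen with earlier results of these data known. The ciliated list was written after values were seen. No sequence was read, so a planned promoter search was not made.

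Summed levels of the marker lists, given for AVM, PVM and PVD libraries in turn, were 58.1 to 101, 356 to 463 and 360 to 407 CPM for hypodermis, and 42.2 to 73.6, 70.3 to 997 and 165 to 193 CPM for intestine. They were 134 to 381, 164 to 227 and 42.0 to 152 CPM for germline, 9.64 to 28.3, 18.4 to 39.3 and 18.6 to 23.5 CPM for glia, 38.6 to 131, 93.0 to 159 and 135 to 266 CPM for pharynx, and 0.536 to 12.5, 4.84 to 7.15 and 4.10 to 10.6 CPM for coelomocytes. Body wall muscle markers summed to 4292 and 4750 CPM and neuron markers to 1863 and 4545 CPM in PVD. Medians over all libraries were 245 CPM for hypodermis, 161 for intestine, 184 for germline, 25.1 for glia, 158 for pharynx and 7.40 for coelomocytes.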

Additional observations from a re-analysis of the deposited data

How the results depend on the processing

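The 10 calls across classes held under every alternative run, as did those of AVM and PVM against the other classes, except that 9 were called with the other libraries as 1 group. Between AVM and PVM, 1 gene was called; the count was 0 with all libraries in the fit, 3 with DESeq2, 3 with limma-voom, 5 with no filter, and 1 to 6 when 1 library was left out (6 without PVMr126, where PVM has 1 library and AVM alone gives the spread). In PVD the count of 4 became 2 with the other libraries as 1 group, and 2 to 4 when 1 library was left out, with the other classes giving the spread. Of class pairs, 17 were called with the other libraries as 1 group, which includes touch receptor libraries, and 67 to 75 when 1 library of each class was left out. The cause was not tested.

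Between AVM and PVM and in PVD, the directions that turned were of genes not called. Of class pairs called higher outside AVM and PVM, 22 of 57 were below 0 with the other libraries, AVM and PVM included, as 1 group. The gene mec-18 in PVC was at -0.63 without PVCr214. For mec-1 between AVM and PVM the log2 fold change was 0.16 with all libraries in the fit, 0.0096 without AVMr228, 0.45 without PVMr126 and -0.37 without PVMr123, 0.085 with no filter, 0.044 without ribosomal RNA genes and 0.0097 with limma-voom. For mec-14 it was 0.024 without PVMr126 and -0.56 without PVMr123. In PVD, leaving out 1 library put mec-12 between -1.24 (without PVDr63) and 0.22, mec-1 between -0.0084 (without PVDr62) and 0.50, and mec-14 between -4.29 (without PVDr62) and 1.92; with the other libraries as 1 group, mec-1 was at -0.34 and mec-18 at -0.20. Over all genes, the other libraries as 1 group gave 234 calls in place of 989 for AVM and PVM and 113 in place of 779 for PVD. Limma-voom gave 489 for PVD. Between AVM and PVM, no filter gave 1892, DESeq2 1355 and limma-voom 666, in place of 878. The median log2 fold change of all genes moved from -0.19 to -0.30 with RLE for AVM and PVM, and from -0.28 to -0.13 for PVD. No paired analysis was possible because the classes share no replicate numbers. Depth limits low values, 3 counts being worth up to 6.37 CPM, and 1.59 and 3.07 CPM in PVD.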
